A study of Mus musculus with 16 samples.

Results

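Follicular B cells that carry a transgenic receptor against intestinal goblet cells (Auto.Pos) were compared with follicular B cells whose transgenic receptor recognises Thy-1 in mice that lack Thy-1 (Auto.Neg). The comparison rests on the samples titled Auto.Pos 1 and 2 and Auto.Neg 1 and 2, which are 4 of the 8 samples and 8 of the 16 arrays of the series. Each sample was hybridised on 2 dual-colour Agilent mouse arrays, with the sample in Cy5 on the first and in Cy3 on the second, against RNA pooled from 6 cell lines. Values are given as the log2 ratio of a sample to that reference, averaged over its arrays.

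All mice were C.B17. The Auto.Neg mice are the ATAμκTg line, with the VH3609μ heavy chain and the Vk21-5κ light chain as transgenes, on a Thy-1 knockout. The Auto.Pos mice are the AGcAμκTg line, with the same VH3609μ heavy chain and the Vk19-17κ light chain (written Vkappa17-17kappa in a further label field), and no Thy-1 knockout is given for them. The 2 groups thus share the heavy chain transgene and differ in the light chain transgene, in the antigen and in the knockout label, and the effects of these cannot be told apart here. Wild-type cells (WT, n = 2) and the single Non-edited and Edited samples, both from Thy-1 knockout mice that carry VH3609t +/- and Vk21-5Tg +/-, serve below as samples that the contrast did not use. The sources used here do not give age, sex or the number of mice per sample, so the p-values reflect only the spread between samples, which may be technical.

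An antibody receptor joins a heavy and a light chain, and a B cell with a rearranged transgene for each largely stops rearranging its own genes, a process known as allelic exclusion. A mature B cell that meets its antigen can be activated, silenced or kept alive, depending on the strength of the signal and on what other receptors sense. The series is named for Nod1, a cytosolic receptor for fragments of bacterial peptidoglycan, which signals through the kinase Ripk2 to NF-kB.

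The sequences shown first are array probes of the immunoglobulin kappa locus on chromosome 6, on which the comparison of light chains rests. They are shown because a probe reports V segments that share its letters, and the 2 groups were given different light chains. All are 60-base probes as the files give them, 5′ to 3′, placed in mouse build mm7. In the units lower in Auto.Pos, capitals mark codons typical of a light chain V segment: TATTACTGT just before the third hypervariable loop, TGGTAC just after the first and TCCTGC just before the first. LOC674029 holds none of these.
ENSMUST00000089814: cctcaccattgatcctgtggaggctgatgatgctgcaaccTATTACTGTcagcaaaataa
BC080787: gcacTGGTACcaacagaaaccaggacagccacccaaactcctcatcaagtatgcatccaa
LOC674029: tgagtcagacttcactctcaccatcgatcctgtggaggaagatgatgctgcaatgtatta
ENSMUST00000089809: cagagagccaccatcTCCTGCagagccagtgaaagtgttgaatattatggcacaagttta
In the units higher in Auto.Pos, capitals mark the 24-base run that BF578595 and NAP061491-1 share. ENSMUST00000066275 shares no run over 5 bases with either.
BF578595: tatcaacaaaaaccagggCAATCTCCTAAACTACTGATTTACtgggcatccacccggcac
NAP061491-1: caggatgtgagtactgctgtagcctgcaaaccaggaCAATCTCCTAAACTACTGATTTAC
ENSMUST00000066275: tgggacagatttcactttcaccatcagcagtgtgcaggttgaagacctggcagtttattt
The heavy chain unit that stood furthest above wild type is shown for the shared transgene.
LOC619916: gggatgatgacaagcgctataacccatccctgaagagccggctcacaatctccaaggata
The next longest exact run between any 2 of these probes was 13 bases, between ENSMUST00000089814 and LOC674029. These 2 probes also match in part on both sides of that run, so they may not be independent measurements. Other pairs shared at most 11 bases in a row. Such runs count exact matches only and do not measure similarity as a whole.

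Light chain units held all 3 genes that passed the test, and differences at the kappa locus went in both directions. ENSMUST00000089814 (chr6:70591160-70591219, plus strand), BC080787 (chr6:70625849-70625908) and ENSMUST00000089809 (chr6:70721928-70721987), all described in the files as kappa or antibody light chain sequences, were the only 3 of 20470 genes called lower (0.0147%) at a limma adjusted p under 0.05. Their differences were -7.34 (slide 2 -7.74), -5.73 (slide 2 -5.91) and -4.93 (slide 2 -5.19), in that order. No gene was called higher (0%), and 213 genes had an unadjusted p under 0.05. In BC080787 the Auto.Neg samples read 6.75 and 6.96 and the Auto.Pos samples 1.05 and 1.20. WT read 4.55 and 4.05 between them, while Non-edited, with the Vk21-5 transgene, read 7.39 and Edited 5.84. The order was thus Auto.Neg and Non-edited highest, WT in the middle and Auto.Pos lowest, with no overlap of the 2 groups.

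A rule of size was used beside the test, because 2 samples a group leave few degrees of freedom. At least 2-fold higher in Auto.Pos in all 4 pairs of an Auto.Pos and an Auto.Neg sample were 22 genes (0.107% of those tested), and 22 were 2-fold lower in all 4 (0.107%). Of the 22 higher genes 7 lay on chromosome 6 (31.8%), and of the 20 lower genes with a position 9 did (45%), against 5.58% of all genes placed. The stretch from 67542113 to 70625908, spanned by units named as kappa V segments, held 4 of the higher and 7 of the lower genes out of 69 tested there. Nod1 and Cd9 also lie on chromosome 6, outside that stretch.

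LOC674029 (chr6:70606692-70606751), a predicted kappa V-III sequence, read 5.12 and 5.92 for Auto.Neg. It was not well above background on any of the 4 Auto.Pos arrays, so no level can be given there. Its Auto.Pos values of 0.02 and 0.30 come from such dim signals, and the difference of -5.36 (SE 0.397, limma adjusted p = 0.121; slide 2 -5.90) is measured against them. BC108385 (chr6:70690221-70690280), a cDNA clone not named as immunoglobulin, read 5.43 and 5.70 for Auto.Neg, -0.93 and -0.06 for Auto.Pos and 4.55 and 4.10 for WT, a difference of -6.06 (SE 0.363, limma adjusted p = 0.0602; slide 2 -6.63). The antibody light chain U55685 (-3.95), the single-chain antibody U10410 (-4.14), LOC669091 (-3.02), LOC673099 (-1.98) and Igkv14-111 (-2.20) were likewise at least 2-fold lower in all 4 pairs. None of these passed the threshold.

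Units of the same locus also lay in the opposite direction, led by 3. NAP061491-1 (chr6:70389786-70389854), which the files do not describe, read 1.44 and 2.48 for Auto.Neg and 6.73 and 6.15 for Auto.Pos, with WT at 3.76 and 2.83. The difference was 4.48 (SE 0.505, limma adjusted p = 0.428), with 4.25 on slide 2 and 4.71 in the other pair. BF578595 (chr6:70233777-70233836), an expressed sequence tag, read 1.55 and 2.36 against 6.56 and 6.10, with WT at 5.12 and 4.40 (difference 4.38, SE 0.405, limma adjusted p = 0.236). ENSMUST00000066275 (chr6:70092051-70092110, minus strand), a predicted kappa V-V sequence, read 2.62 and 3.71 against 7.81 and 7.25, with WT at 5.75 and 4.98. Its difference of 4.37 (SE 0.484, limma adjusted p = 0.426) was -0.28 on a second probe. With the scanner protocol as a block, of which each group held 1 sample of each kind, these 3 units passed. Both Auto.Pos samples stood above the other 6 samples of the series in all 3. NAP061491-1 and BF578595 share 24 bases and are not independent measurements. L18942, an antibody light chain (2.23, slide 2 2.14), and ENSMUST00000080848, a predicted kappa V-IV sequence (1.83, slide 2 2.04; -0.35 on a second probe), were also 2-fold higher in every pair, but below both WT samples.

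The transgenic V segments themselves could not be read by name. Vk21-5 is Igkv3-5 and Vk19-17 is Igkv6-17 by RefSeq synonyms, and 0 probes carry either symbol. Each family, Igkv3 and Igkv6, has 1 probe named by symbol, and that probe read below WT in both transgenic groups. Igkv3-12 read 1.69 and 1.83 for Auto.Neg and 0.44 and 0.61 for Auto.Pos, below the 4.03 and 3.44 of WT. Igkv6-14 read 0.94 and 0.96 for Auto.Neg, 0.15 and 1.43 for Auto.Pos and 5.42 and 4.88 for WT. Igkv3-12 is described as a V-III sequence, and other V-III units without such a symbol went both ways in Auto.Neg. ENSMUST00000089814 (6.69 and 7.24) and LOC674029 (5.12 and 5.92) read above WT (4.14 and 3.67, and 2.77 and 2.01). LOC673099 (2.27 and 1.73) read below WT (2.81 and 2.75). Which probe reports which transgene was not tested.

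Set against wild type, the immunoglobulin units of both groups mostly read lower. Tested were 102 immunoglobulin units, taken by a rule on symbol and description. The rule left out some, such as Igkv4-72 (-1.17), whose description also names myosin. Of the 102, 79 (77.5%) were below both WT samples in all 4 samples of the comparison, against 5.5% of all genes. The share was 81.6% of the 49 heavy chain units and 76.7% of the 43 kappa units. These shares depend in part on the filter, which kept probes well above background in at least 2 of 8 samples, whichever these were. ENSMUST00000079156 and AY172399 were well above background on 0 Auto.Neg and 0 Auto.Pos arrays, so they passed on other samples only. For such units a reading below WT largely follows from the filter. Their number among the 79 was not counted. The median heavy chain unit read -0.08 for Auto.Neg, -0.12 for Auto.Pos and 2.19 for WT, and the median kappa unit 0.98, 0.36 and 3.27. Between the 2 transgenic groups 9 units were 2-fold lower in Auto.Pos in every pair and 3 were 2-fold higher. In 34 of the 102 units the groups did not overlap downward and in 7 upward, which makes 40.2% without overlap, against 19.2% of all genes. By class this was 15 down and 6 up among kappa units (48.8%) and 16 down and 0 up among heavy chain units (32.7%), although no heavy chain unit was 2-fold apart in every pair. Many of these heavy chain units, such as X12388, ENSMUST00000079156 and AY172399, were well above background on 0 Auto.Pos arrays. Their order rests on dim signals, so the heavy chain share is not read as a difference between the groups. The median difference, Auto.Pos minus Auto.Neg, was -0.08 for heavy chain units (0 called; slide 2 0.0002, other pair -0.17). For kappa units it was -0.29 (2 called lower; slide 2 -0.43, other pair -0.01).

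The 2 heavy chain units above WT in all 6 transgenic samples were picked after their values were seen. LOC619916 (chr12:113252694-113252753, minus strand) read 5.79 and 5.54 for Auto.Neg, 6.16 and 4.79 for Auto.Pos, 5.38 in Non-edited and 5.15 in Edited, against 2.22 and 1.80 for WT. ENSMUST00000074486 read 5.52 and 5.02 for Auto.Neg, 5.59 and 4.25 for Auto.Pos, 4.94 in Non-edited and 4.65 in Edited, against 4.10 and 3.14 for WT. All 6 of these samples carry VH3609 heavy chains by their labels. The 2 groups overlapped on both units, with differences of -0.19 (SE 0.487) and -0.34 (SE 0.567). On slide 2 both went the other way, by 0.63 and 0.58.

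**Figure D1:**
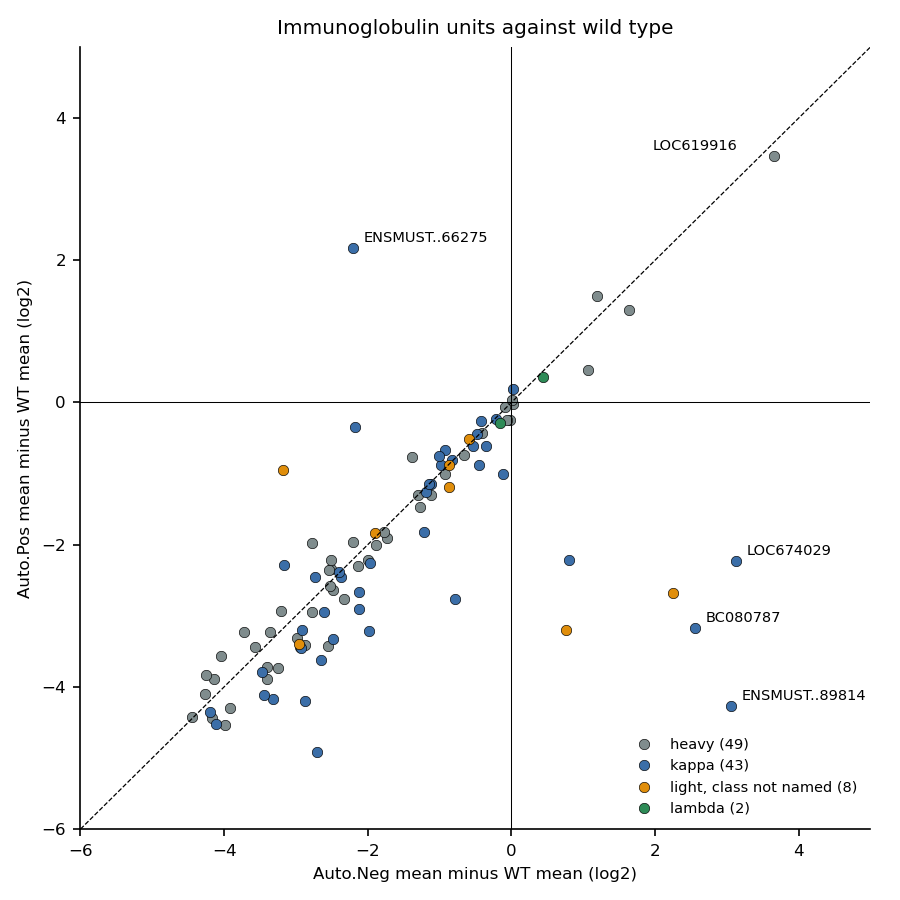
Each point is 1 of the 102 immunoglobulin units, with the Auto.Neg mean minus the WT mean on the x axis and the Auto.Pos mean minus the WT mean on the y axis, both in log2. Most heavy chain units lie near the dashed line of equality and below 0 on both axes, LOC619916 lies above 0 on both, and kappa units such as ENSMUST00000089814 and ENSMUST00000066275 lie far off the line on opposite sides.

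Samples did not sort by group, and their arrays were spread over 7 slides and 4 scan days. Auto.Neg 2 and Auto.Pos 1 shared slide 2 and correlated at 0.978 across genes, and Auto.Neg 1 and Auto.Pos 2, from separate slides, at 0.957. Both are above the 0.903 between the Auto.Neg samples and the 0.904 between the Auto.Pos samples. On these 8 arrays 66.6% to 75.7% of probes were well above background in the sample channel, and all 11 B cell markers on the array were above background in every sample, with mean log2 ratios of 5.01 to 5.13. Many group differences, though not all, are therefore given with the difference inside slide 2 (Auto.Pos 1 minus Auto.Neg 2). Where useful, that of the other pair is added. The median difference of all genes was 0.02. Thy1, the gene of the knockout label, was low against the reference in every sample: it read -4.00 and -4.19 for Auto.Neg, -3.73 and -4.22 for Auto.Pos and -4.31 and -4.54 for WT. It was well above background on all 4 Auto.Neg arrays and no lower there than in WT. Where its probe lies relative to the deletion is not given in the sources used here, so the values do not check the label.

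**Figure D2:**
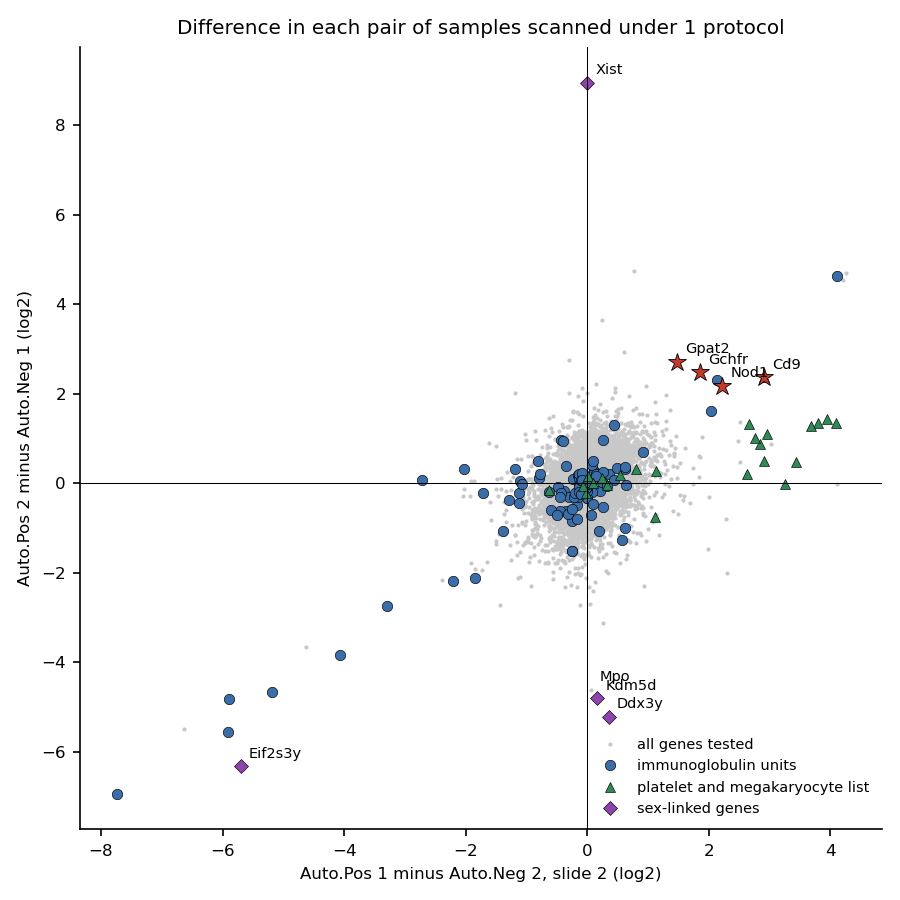
Each point is a gene, with the difference of the slide 2 pair on the x axis and that of the pair Auto.Pos 2 minus Auto.Neg 1 on the y axis, both in log2. Nod1, Cd9, Gchfr, Gpat2 and those immunoglobulin units that were 2-fold apart in every pair lie away from 0 on both axes, most other immunoglobulin units near 0 on at least 1 axis, platelet genes mainly along the x axis, and Xist, Ddx3y and Kdm5d along the y axis.

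Apart from units named as immunoglobulin, 19 of the 2-fold higher and 13 of the 2-fold lower genes remained, and none of them passed the adjusted threshold. NAP061491-1, BF578595, BC108385 and U10410, given above, are among them. Cd9, a tetraspanin that organises membrane partners and marks marginal zone and B-1 B cells, read 3.73 and 3.40 on the arrays of Auto.Neg 1 and 2.52 and 3.46 on those of Auto.Neg 2. On the Auto.Pos arrays it read 5.25 and 6.54, and 5.47 and 6.41. Every Auto.Pos array was thus above every Auto.Neg array. The difference was 2.64 (SE 0.258, limma adjusted p = 0.275), with 2.90 on slide 2 and 1.08 on a second probe.

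Nod1 had a single probe (chr6:54887383-54887442). The 4 Auto.Neg arrays read 2.89, 2.89, 3.18 and 3.29 and the 4 Auto.Pos arrays 5.57, 5.33, 5.09 and 5.06. Here too no array overlapped, and WT (4.04 and 3.66) and Edited (4.07) lay between the groups, while Non-edited (1.60) lay below both. The group difference was 2.20 (SE 0.263, limma adjusted p = 0.485), with 2.22 on slide 2 and 2.18 in the other pair.

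Gchfr encodes the feedback regulator of GTP cyclohydrolase, the enzyme that starts tetrahydrobiopterin synthesis. It read -0.81 and -0.61 for Auto.Neg and 1.24 and 1.68 for Auto.Pos, and WT (-0.39 and -0.20), Non-edited (-1.18) and Edited (-0.94) were all on the Auto.Neg side. The difference was 2.17 (SE 0.238, limma adjusted p = 0.426; slide 2 1.85). Gpat2, a glycerol phosphate acyltransferase, read 0.06 and 0.63 for Auto.Neg and 2.10 and 2.78 for Auto.Pos. For Gpat2, WT (1.95 and 2.05), Non-edited (2.55) and Edited (1.96) lay on the Auto.Pos side, so Auto.Neg is the group apart (difference 2.10, SE 0.328; slide 2 1.48). Alox12, an arachidonate lipoxygenase abundant in platelets, read 1.04 and 0.63 against 3.29 and 2.36, with a difference of 1.99 (SE 0.381; slide 2 2.66) that was 0.65 on another probe.

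The deubiquitinase gene Usp2, a gene with a daily rhythm in many tissues, read -2.61 and -2.55 for Auto.Neg and -0.04 and -1.25 for Auto.Pos. WT stood still higher at 0.48 and 0.25, and Non-edited (-2.77) and Edited (-3.06) read near Auto.Neg. The difference was 1.94 (SE 0.424; slide 2 2.52). The unclassified transcript AK048651 lay 3.04 higher (SE 0.450; slide 2 3.32), with Edited (2.37) near Auto.Pos and Non-edited (0.17) near Auto.Neg. Smaller differences were seen for Ankrd12 (1.34), the dystrophin gene Dmd (1.25), the condensin gene Smc4 (1.25), Dcbld1 (1.24), Kansl1l (1.20) and 9930017N22Rik (1.12). Other probes differed by -0.26 to 0.37 for Ankrd12, 0.20 for Smc4 and 0.39 for Kansl1l, so these rest on 1 probe each. Second probes differed by 0.60 for Dcbld1, 0.91 for Dmd (slide 2 0.36) and 0.65 for 9930017N22Rik, in the same direction but by less.

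Among the lower genes, Slamf1, a self-binding receptor of lymphocytes, read 3.32 and 3.18 for Auto.Neg and 2.02 and 1.73 for Auto.Pos. All 4 samples outside the comparison lay on the Auto.Neg side, from 3.30 to 3.85. The difference was -1.38 (SE 0.265; slide 2 -1.16), but -0.01 on another, dimmer probe. Chst10, a sulfotransferase that makes the HNK-1 carbohydrate, read 2.70 and 3.07 against 1.62 and 1.56 (difference -1.30, SE 0.279; slide 2 -1.45), with WT, Non-edited and Edited again on the Auto.Neg side from 2.65 to 3.63. Slamf1 and Chst10 are thus cases where Auto.Pos is the group apart.

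Chka, a choline kinase, read 2.50 and 2.58 against 1.43 and 1.17 (difference -1.24, SE 0.237; slide 2 -1.15), and its other probes differed by -0.997, -0.47 and -0.48, all in the same direction. WT was lower than both groups at 0.86 and 0.42. For the adhesion genes Dscam (-1.84; 0.08 on another probe) and Lrfn5 (-1.61), WT, Non-edited and Edited read at most 0.25, so Auto.Neg stood above every other group. Parm1 (-1.40; 0.09 on another probe), Loxhd1 (-1.43; dim on 2 of 4 Auto.Pos arrays) and the unclassified AK032340 (-1.88) were also 2-fold lower in every pair. In these, WT 1 (0.39, 1.75 and 1.90) read within or above the Auto.Neg samples. The arrays of WT 2 read -1.36 and -1.08 for Parm1, near the Auto.Pos arrays (-1.25 to -0.77), so the WT samples disagreed there. For Loxhd1 the arrays of WT 2 read 2.02 and 0.54, and for AK032340 1.00 and 1.04. The GPI-anchored surface genes Ly6a (-2.28; slide 2 -2.40) and Ly6c1 (-2.08; slide 2 -1.44) were 2-fold lower in every pair, while WT spanned the whole range, with 0.75 and 6.17 for Ly6a and 0.67 and 5.50 for Ly6c1. A second Ly6c1 probe differed by -0.86, and by 0.50 in the opposite direction on slide 2.

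**Figure D3:**
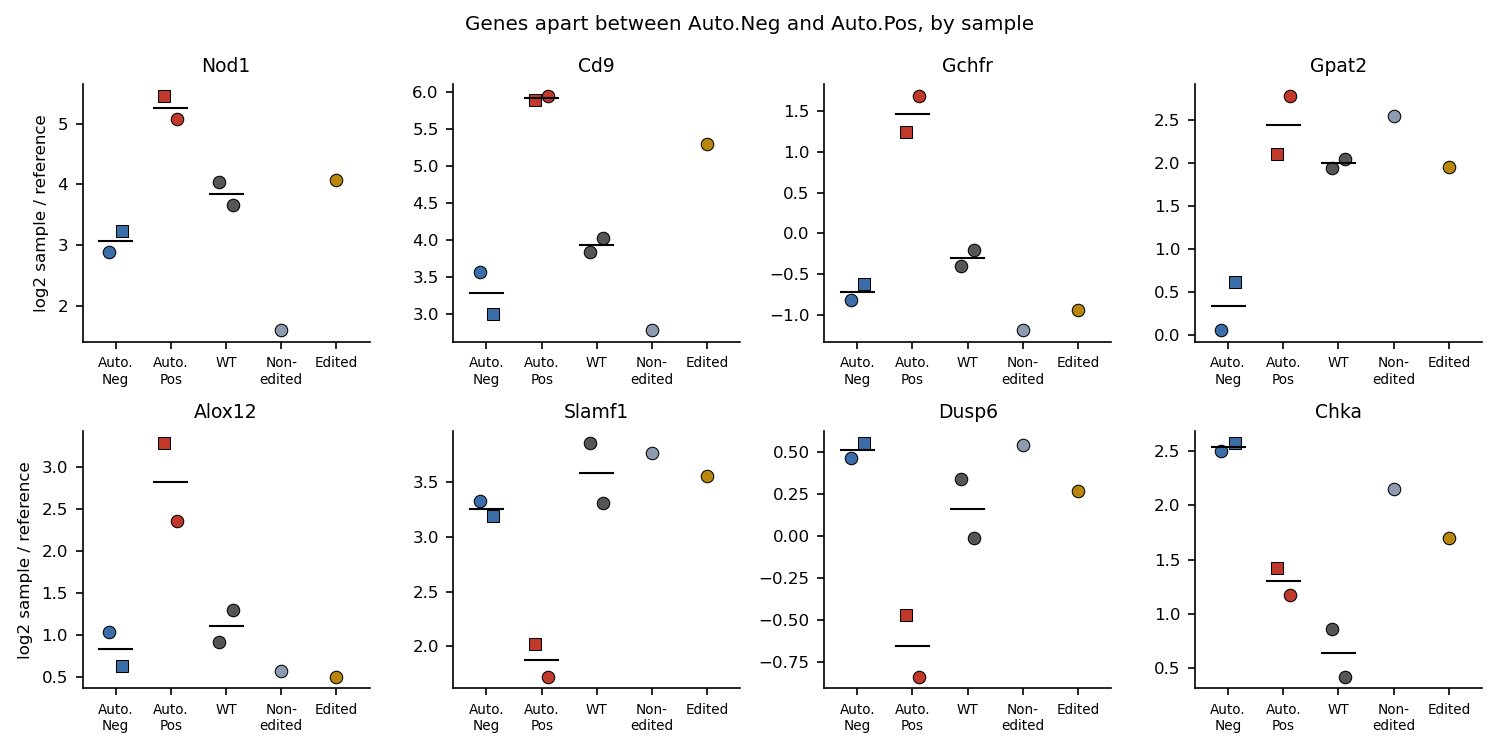
Points are samples, with the log2 ratio of sample over reference on the y axis and the 5 groups on the x axis, squares mark the 2 samples of slide 2 and bars the group means. Auto.Pos lies above Auto.Neg without overlap for Nod1, Cd9, Gchfr, Gpat2 and Alox12 and below it for Slamf1, Dusp6 and Chka, while WT, Non-edited and Edited take different places from gene to gene.

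The samples that the contrast did not use fell on no single side. Of the 19 higher genes outside immunoglobulin, WT 1 was nearer to the Auto.Pos mean for 4, WT 2 for 8, Non-edited for 5 and Edited for 10. Over all genes tested, these samples were nearer to Auto.Pos for 43%, 47.5%, 40.7% and 43.5%. Among the 13 lower genes the numbers were 5, 4, 7 and 6. The WT mean lay between the means of the 2 groups for 16 of the 19 higher genes and for 6 of the 13 lower ones.

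Platelet and megakaryocyte genes made up 6 of the 22 2-fold higher genes: Ctla2a, Ppbp, Cd9, Ctla2b, Myl9 and Alox12. This list was written with earlier results of these data known, so the number of its members among them is not evidence about the list. Of the 24 genes of this list on the array all were tested, 21 lay higher and 3 lower in Auto.Pos, 0 were called, and in 15 the groups did not overlap upward, against 11.1% of all genes (2263). The list's median difference was 1.52, with 2.64 on slide 2 and 0.29 in the other pair. Without Auto.Pos 1 the median was 0.24 and without Auto.Pos 2 it was 2.53. The list's mean log2 ratio was 2.45 in Auto.Pos 1 and 0.99 in Auto.Pos 2, against 0.44 and 0.56 for Auto.Neg and 0.24 and 1.08 for WT, so a WT sample read above Auto.Pos 2.

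Single platelet genes show the same uneven pattern. Ppbp, a platelet chemokine, read 2.63 and 2.91 for Auto.Neg and 6.86 and 4.06 for Auto.Pos, with 4.93 in WT 2. Pf4, the chemokine that defines platelet granules, read -2.93 and -2.77 for Auto.Neg, 0.67 in Auto.Pos 1 and -2.47 in Auto.Pos 2, with -3.93 and -0.32 for WT. Myl9, a regulatory myosin light chain, read 1.65 and 1.92 for Auto.Neg and 5.60 and 2.93 for Auto.Pos. Ctla2a (3.89 and 1.38 for Auto.Pos) and Ctla2b (3.46 and 0.95) were also highest in Auto.Pos 1. Cd9 departed from this pattern, reading 5.89 and 5.94 in the Auto.Pos samples. In all, 20 of the 24 genes were higher in Auto.Pos 1 than in Auto.Pos 2 (median gap 1.50), whereas for the 13 2-fold higher genes outside both the immunoglobulin and the platelet sets the median gap was -0.03. In bulk samples fewer cells of a type and less RNA per cell cannot be told apart. The part that platelet RNA had in the difference of Cd9 or Alox12 was not tested.

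**Figure D4:**
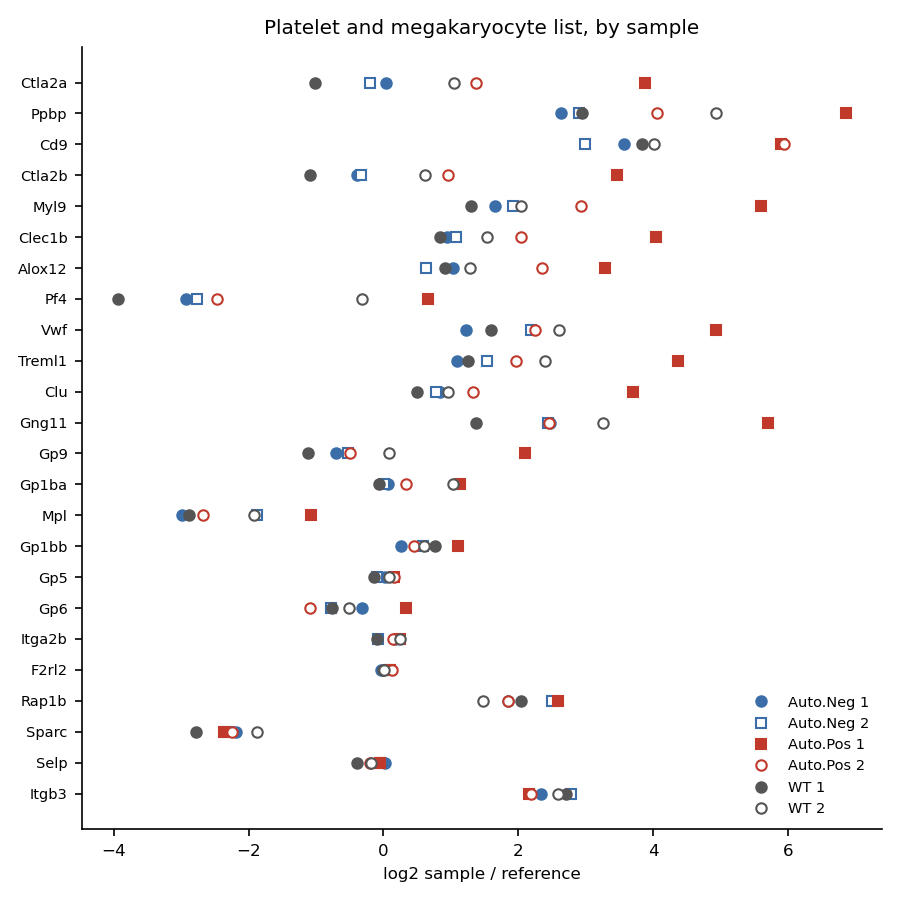
Each line is a gene of the platelet and megakaryocyte list and each point a sample of Auto.Neg, Auto.Pos or WT, placed by its log2 ratio of sample over reference on the x axis; filled points are sample 1 and open points sample 2, and squares mark slide 2. Auto.Pos 1 lies far to the right for most genes. Auto.Pos 2 lies close to WT 2 for some genes, such as Ctla2a, and close to Auto.Neg for others, such as Pf4 and Gng11. For Cd9 both Auto.Pos samples lie together, at 5.89 and 5.94.

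Sex-linked genes differed within the Auto.Pos group. Xist, the RNA that coats the inactive X chromosome, read 0.16 and 0.02 for Auto.Neg, 0.02 in Auto.Pos 1 and 9.12 in Auto.Pos 2, and 9.80 and 10.13 in Non-edited and Edited. The Y-linked Ddx3y read 1.36 and 2.34 for Auto.Neg, 2.69 in Auto.Pos 1 and -3.86 in Auto.Pos 2, and Kdm5d read 2.22 and 1.89, then 2.06 and -2.58. By these 3 genes Auto.Pos 1 read like the Auto.Neg and WT samples. Eif2s3y, also Y-linked, went against them in Auto.Pos 1: it read 6.48 and 6.59 for Auto.Neg, 7.26 and 5.96 for WT, but 0.89 in Auto.Pos 1 and 0.15 in Auto.Pos 2. Both arrays of Auto.Pos 1 were low for Eif2s3y (difference of the groups -6.02, SE 0.499, limma adjusted p = 0.154; slide 2 -5.70).

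Of the NOD1/NOD2 pathway, 20 genes were tested, with 11 higher and 9 lower in Auto.Pos and 0 called (median 0.02, slide 2 0.01). Nod1 was the only member 2-fold apart in every pair. The sister receptor Nod2 lay at -0.59 (SE 0.320; slide 2 -1.05), and Slc15a3, a transporter that brings peptidoglycan fragments into the cytosol, read 0.43 and 0.40 for Auto.Neg and -0.05 and -0.92 for Auto.Pos (difference -0.89, SE 0.350; slide 2 -0.44). The inflammasome list had 11 of 16 genes higher and 0 called (median 0.10). Its largest differences were those of the inflammatory caspases Casp1 (0.87, SE 0.331) and Casp4 (0.80, SE 0.435), of the sensor Nlrp3 (0.63) and, downward, of the adaptor Pycard (-0.60; -0.50 on a second probe). Casp1 read 0.49 and 1.21 for Auto.Neg and 1.84 and 1.59 for Auto.Pos without overlap, and Pycard 0.04 and -0.20 against -0.53 and -0.84.

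The 16 leukocyte tetraspanins split evenly, with 8 higher, 8 lower and 0 called (median -0.03). Cd9 lay 2.64 higher. The other 15 lay between -0.39 and 0.31, so the difference of Cd9 was not seen in its family.

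Genes of receptor signalling lay mostly lower by small amounts, and 0 were called in any of these lists. Of 26 genes of the B cell receptor complex and its proximal kinases, 10 lay higher and 16 lower (median -0.11). The exchange factor Vav2 lay at -0.66 and the scaffold Malt1 at 0.39. Among 23 inhibitory receptors and phosphatases 17 lay lower and 6 higher (median -0.14, slide 2 -0.18, other pair -0.21). Groups did not overlap downward in 8 of them, against 8.17% of all genes (1673).

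Dusp6, the phosphatase that switches off ERK, read 0.47 and 0.56 for Auto.Neg and -0.47 and -0.84 for Auto.Pos. WT (0.34 and -0.01), Non-edited (0.55) and Edited (0.27) lay between the groups or on the Auto.Neg side. Its difference was -1.16 (SE 0.237; slide 2 -1.02, other pair -1.30). Spred1, another brake on ERK, lay at -1.13 (SE 0.714; -0.12 on another probe). Ptpn22, a phosphatase that acts on Src and Syk family kinases, went the other way: it read -1.65 and -0.80 for Auto.Neg and 0.18 and -0.48 for Auto.Pos (difference 1.07, SE 0.379; slide 2 0.97).

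Genes induced by receptor engagement were not higher as a group. The 22 immediate early genes had 10 higher, 12 lower and 0 called (median -0.02). Egr1 read 1.11 and 1.47 for Auto.Neg and 1.04 and 0.49 for Auto.Pos (difference -0.53), and Egr2 lay at -0.77, with values of 4.02 and 4.50 against 4.04 and 2.94. Of 24 surface activation and costimulation genes 16 lay lower, 8 higher and 0 were called (median -0.23, slide 2 -0.09). The early activation marker Cd69 lay at -0.41 and the death receptor gene Fas at -0.72 (slide 2 -0.84; 0.13 on another probe). NF-kB subunits and feedback inhibitors had 8 higher, 11 lower and 0 called (median -0.04), with Traf1 at -0.67 and Nfkbia, the inhibitor that NF-kB itself induces, at -0.42.

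Survival genes did not move as a group. Of 18 BCL2 family genes 6 lay higher, 12 lower and 0 were called (median -0.07). On slide 2 the direction turned, with 11 higher and 7 lower (median 0.06), against a median of -0.15 in the other pair. Bcl2 itself lay at 0.57 (SE 0.469), with 0.33 and 0.21 on other probes, and the pro-death gene Bmf at -1.04 (SE 0.592; -0.26 and 0.03 on other probes). The list of BAFF receptors and PIM kinases had 8 higher, 6 lower and 0 called (median 0.01), and 5 higher and 9 lower on slide 2. Its survival kinase Pim2 read 2.50 and 2.59 for Auto.Neg and 1.57 and 2.01 for Auto.Pos. That is a difference of -0.75 (SE 0.420; slide 2 -1.02) without overlap, and -0.71 on a second probe.

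Lists of B cell subsets lay close to the median of all genes. Marginal zone genes had 13 higher and 7 lower of 20 (median 0.17, slide 2 0.20, -0.06 without Auto.Pos 1), and B-1 cell genes 11 higher and 8 lower of 19 (median 0.16, other pair -0.03). Median centring moved these medians to 0.04 and 0.01. Follicular homing and egress genes had 13 higher and 8 lower of 21 (median 0.09, -0.07 under median centring), with the integrin gene Itga4 at 0.89 (-0.65 to 0.12 on other probes). The 18 transitional and recombination genes had a median of -0.05 and the 25 B cell and plasma cell regulators a median of 0.00. Each of these lists had 0 genes called. Among the regulators, Foxp1, a factor needed for mature follicular B cells, read 2.57 and 2.43 for Auto.Neg and 3.01 and 3.29 for Auto.Pos (difference 0.65, SE 0.199; slide 2 0.58), with 0.37 and 0.65 on other probes. The plasma cell gene Jchain read -2.59 and -3.15 against -4.03 and -3.64 (difference -0.97, SE 0.287; slide 2 -0.88), and -1.38 on a second probe.

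In type I interferon response genes the pairs differed in sign. Of 30 genes 24 lay lower, 6 higher and 0 were called (median -0.22), but on slide 2 the median was 0.27 with 21 higher, and in the other pair -0.61 with 28 lower. Auto.Neg 1 read above Auto.Neg 2 in 26 of the 30, and without Auto.Neg 1 the median was 0.24. Rsad2, an antiviral enzyme, lay lower in both pairs (difference -1.03, slide 2 -0.90; -0.70 and -0.78 on other probes). Toll-like receptors (median -0.01 of 22), cytokine receptors (-0.02 of 24) and MHC and antigen presentation genes (-0.13 of 21; slide 2 -0.27, other pair 0.14) had 0 called, and the cytokine receptor gene Il21r lay at -0.86 (SE 0.399).

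Growth and metabolism lists also stayed near 0, each with 0 called. The median was -0.11 for 34 cell cycle genes (0.14 under scaling between arrays), -0.06 for 27 MYC and ribosome biogenesis genes, -0.16 for 27 genes of glycolysis and hypoxia, -0.05 for 29 of cholesterol and fatty acid synthesis, -0.07 for 39 of oxidative phosphorylation and -0.07 for 20 heat shock chaperones. On slide 2 the medians of these lists lay between -0.04 and 0.03, and in the other pair between -0.27 and -0.07. The 25 lipid mediator and redox enzymes had a median of 0.04 (-0.12 under median centring), yet 3 of them, Gchfr, Gpat2 and Alox12, were 2-fold higher in every pair and Chka was 2-fold lower. This list was written with those 4 genes already known, so their number in it is not evidence about the list.

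Some markers of other cell types differed between samples of 1 group. Neutrophil markers had a median of 0.71 on slide 2 and -0.76 in the other pair, and the granule enzyme gene Mpo read 4.16 in Auto.Neg 1 and at most -0.28 in the other 3 samples. The mean log2 ratio of the 14 neutrophil genes on the array was 2.18 and 0.82 for Auto.Neg and 1.49 and 1.09 for Auto.Pos. Macrophage markers had a mean of 1.48 and 2.36 for Auto.Neg and 2.42 and 1.87 for Auto.Pos, and T cell markers a mean of -2.26 and -2.35 against -2.22 and -2.34. Of 9 goblet cell genes on the array 5 could be tested, with a median of 0.01. The part of these cells in the differences above was not tested.

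**Figure D5:**
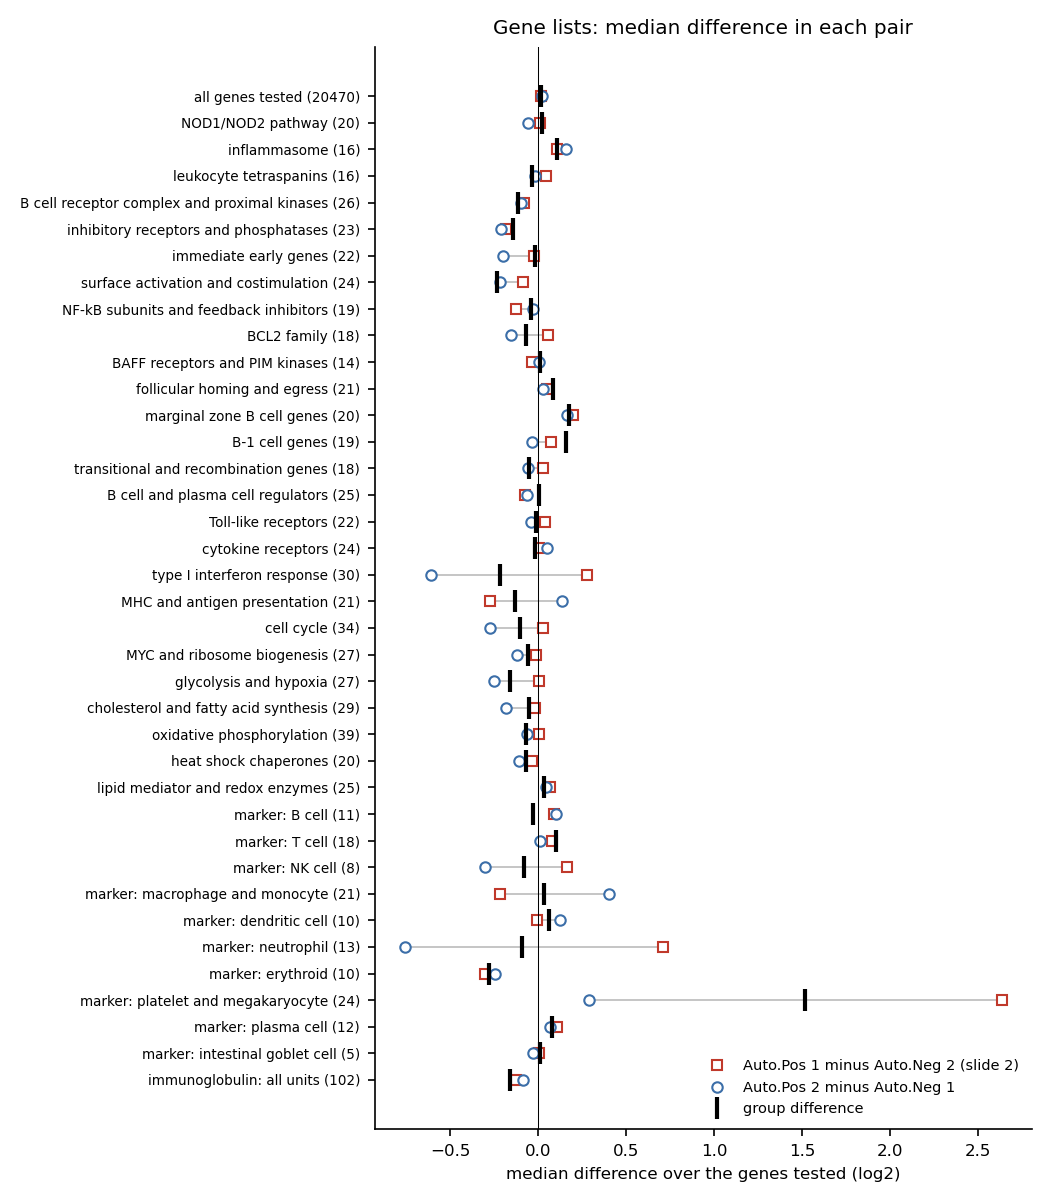
For each gene list except the sex-linked one, with the number of genes tested in brackets, the x axis gives the median difference of Auto.Pos and Auto.Neg in log2: the bar is the group difference, the square the slide 2 pair and the circle the other pair. Of the lists drawn, platelet, neutrophil and interferon genes show the widest gaps between the pairs, while most B cell and metabolic lists lie within 0.3 of 0 in both.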

How the data were processed

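Total RNA (100 ng, amplified) was labelled with Cy3 or Cy5, per the labels' protocols. The deposited scanner files give spot and background intensity in both channels, from Agilent Feature Extraction 9.1.1.1, 9.1.3.1 and 9.5.1.1, per the file headers. They also hold a log10 ratio after the software's own background and dye correction, per the file headers. The deposited series table gives a log2 ratio per array; 10 of its 16 columns matched the scanner array of another column best, so the scanner files were used.

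In R 4.3.3 with limma 3.58.1, intensities were background-corrected (normexp, offset 50) and loess-normalized within arrays, with control spots at weight 0 and outlier spots dropped. Dye-swapped ratios were reversed in sign, so that every ratio is sample to reference, before averaging the 2 arrays. Kept were 29640 of 41174 probes, well above background on both arrays of at least 2 of 8 samples. The offset draws ratios of dim spots towards 0, so their differences are understated. A gene is its brightest probe. limma was fitted to all 8 samples with 1 mean per group (3 residual and 2.11 prior degrees of freedom) and Benjamini-Hochberg adjustment over 20470 genes, threshold 0.05. The fit was tested on simulated data. Named were called genes, the largest 2-fold genes, key and extreme members of the 37 gene lists and the extreme immunoglobulin units; the remaining 2-fold genes, Pf4, Igkv6-14, LOC619916, ENSMUST00000074486 and the chromosome 6 counts were chosen after their values were seen. A gene that the rule also named is not reported here. Members, lists and tests were chosen with earlier results of these data known. Scaling, filter, probe, dye, block and replicate alternatives were run. The number of samples limits the precision.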

Additional observations from a re-analysis of the deposited data

How the results depend on the processing

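The 3 genes called by limma stayed 3 with the scanner software's processed log ratio, and numbered 4 with a strict filter on dim probes, the mean of a gene's probes or the rematched deposited table. They numbered 1 with median centring, 6 with the scanner protocol as a block (3 of them higher), 12 with the sample in Cy5 only, and 0 with scaling between arrays, no filter on dim probes, the sample in Cy3 only or only the 4 samples. With the replicate number as a block 0 were called (130 at an unadjusted p under 0.05). The deviations of same-numbered samples correlated at -0.79, so the numbers do not pair the samples; with the crossed pairing, added after the data were seen, as a block, 8 were called, 3 of them higher. Leaving out any 1 replicate left 0 called, and 135 to 445 genes then had an unadjusted p under 0.05. For genes 2-fold apart in every pair, higher in Auto.Pos, the count was 37 with the software's log ratio and 36 to 126 without a replicate. For genes 2-fold apart in every pair, lower in Auto.Pos, it was 73 and 37 to 258. Of the 22 higher and 22 lower genes, 16 and 14 were kept with median centring, 16 and 19 with scaling between arrays and 14 and 17 with the mean of a gene's probes. Without a replicate fewer pairs have to pass. Slide as a random block could not be fitted, since groups and slides take all 8 degrees of freedom.

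Leaving out a replicate turned the sign for Ddx3y (-5.70 to 0.84), Kdm5d (-4.64 to 0.003), Xist (-0.072 to 9.03), ENSMUST00000074486 (-1.02 to 0.33), LOC619916 (-0.87 to 0.50), Cd83 (-0.19 to 4.09) and Igkv6-14 (-0.80 to 0.48). The sample in Cy5 only turned LOC619916 (0.078), and in Cy3 only Cd83 (-0.35). The cause was not tested. No other gene carried through the alternatives changed sign in any of them. Thy1 was not carried through. Under median centring all genes together had a median of -0.07. Signal over background limits the dim probes: LOC674029 is not well above background in Auto.Pos.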

Other observations

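Edited and Non-edited B cells, which share genotype, differed on the kappa units that led in Auto.Pos. BF578595 read 5.60 in Edited and 2.87 in Non-edited, ENSMUST00000066275 6.37 and 4.19, and NAP061491-1 4.99 and 3.53. Immunoglobulin units 2-fold lower in Auto.Pos in every pair mostly read lower in Edited than in Non-edited. These were ENSMUST00000089814 (5.995 and 6.949), BC080787 (5.84 and 7.39), LOC674029 (3.80 and 5.82), ENSMUST00000089809 (3.48 and 5.22), U55685 (5.12 and 6.56) and LOC669091 (2.98 and 3.84). Edited read above Non-edited for the rest, Igkv14-111 (4.53 and 2.39), Igkv3-12 (3.15 and 2.02) and LOC673099 (2.94 and 2.65). Nod1 (4.07 and 1.60) and Cd9 (5.29 and 2.78) were also higher in Edited. These are 1 sample each, with no replicate check.

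Cd83, an activation marker of B cells, read 4.06 in Auto.Neg 1 and from 7.71 to 8.68 in the other 7 samples, so its group difference of 1.95 was 0.25 on slide 2. The 2 arrays of Auto.Neg 1 disagreed, at 0.75 and 7.37, and the lower one stood apart from the other 15 arrays of the series, which read from 6.77 to 9.44.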
